A study of Mus musculus with 8 samples.

Results

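A set of 10 genes of the mucus-secreting goblet cell was followed in MIN6 cells, a mouse pancreatic β-cell line, with and without forced expression of the transcription factor Klf4. They were chosen by symbol from the deposited count table and are 10 of its 55536 genes: the mucins Muc1, Muc2, Muc4 and Muc13, the trefoil factors Tff1, Tff2 and Tff3, the transcription factor Spdef, the folding enzyme Agr2 and the mucus protein Fcgbp. The study has 2 groups of 4 biological replicates in wild-type MIN6 cells, which are of 1 line and carry no other alteration in the labels. Control cells received pcDNA 3 Empty Vector, and the other cells received pGloMyc-Klf4, in both cases by a 48 h transfection with Lipofectamine 3000, a lipid carrier of plasmid DNA. By their names the plasmids differ in backbone as well as in Klf4, so the effects of the backbone and of Klf4 cannot be told apart, and the share of transfected cells is not given. Replicates 1 and 2 of each group formed batch 1 and replicates 3 and 4 batch 2, and nothing in the labels says whether replicates of a batch came from separate cultures, so p-values measure the spread between these libraries.

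Goblet cells are secretory epithelial cells of the gut and other mucosae that fill with mucin granules. Gel-forming mucins such as Muc2 polymerise into mucus, transmembrane mucins such as Muc1, Muc4 and Muc13 coat the cell surface, and trefoil factors are small secreted peptides that are released with mucins and take part in mucosal repair. Klf4 is known as a factor of goblet cell differentiation in the colon.

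Total counts per library lay between 45417853 and 52731176, and 3 counts in a library correspond to 0.0569 to 0.0662 CPM (a count scaled to library size, here with the TMM factors of edgeR). Klf4 itself had 1743 to 2060 counts in the control and 205171 to 308667 in the Klf4-plasmid libraries, and counts of the plasmid and of the endogenous gene could not be separated. The 12 β-cell markers examined were all expressed; 6 fell, by at most 0.22 on the log2 scale (Slc30a8), and none rose. They summed to 25820 to 32620 CPM in control and 24110 to 32860 CPM in Klf4-plasmid libraries. Of 18266 genes tested, 36.6% changed (adjusted p under 0.05, edgeR's quasi-likelihood test with a term for batch and Benjamini-Hochberg adjustment), 21.1% higher and 15.5% lower, so a single call is a common event in these data. With scaling factors from abundant genes (average log2 CPM of at least 6), 72.7% of the calls were higher, against 57.7% with TMM factors.

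Of the 10 goblet cell genes, 6 rose, beside 21.1% of all tested genes, none fell, 2 were tested without passing the threshold and 2 had too few counts to be tested. Tff1, Fcgbp and Spdef rose at least 2-fold by the fitted value, a rule that 8.5% of all tested genes met in the upward direction. Muc4, Muc1 and Tff3 rose by less. In 5 of the 10 (Tff1, Fcgbp, Spdef, Muc4 and Tff3) all Klf4-plasmid libraries lay above all control libraries, as they did for 17.2% of tested genes. Muc2 and Muc13 did not pass the threshold, and Tff2 and Agr2 stayed at 5 counts or fewer in every library. Of the 8 tested, Tff1, Fcgbp, Spdef and Muc13 would not have passed the filter on low counts (0.204 CPM in 4 libraries) on their control libraries alone and entered through the Klf4-plasmid libraries, so the number of higher genes among those tested is a description only. In bulk RNA, fewer or more cells of a type and a change of RNA per cell cannot be told apart. The plot of CPM by gene and library shows the 10 genes together.

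**Figure D1:**
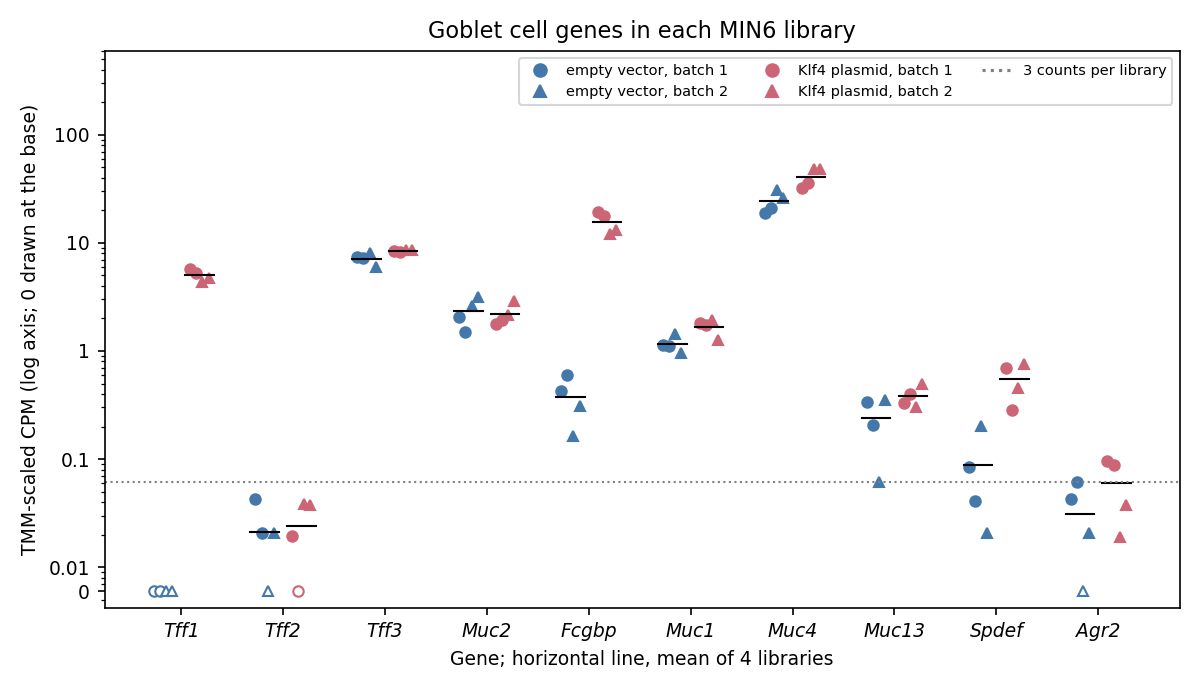
TMM-scaled CPM (log axis, 0 drawn at the base) of the 10 goblet cell genes in 4 empty-vector and 4 Klf4-plasmid libraries; each symbol is 1 library, circles batch 1 and triangles batch 2, the line is the mean and the dotted line marks 3 counts. Tff1 goes from 0 in each control library to 4.33 to 5.69 CPM, and the Fcgbp libraries of the groups lie far apart, whereas those of Muc2 and Tff2 lie over each other.

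Among the trefoil factors, Tff1 showed the largest response. Tff1 (ENSMUSG00000024032), normally a product of the mucous pit cells of the stomach, is located at 31161395 to 31165277 on the minus strand of chromosome 17 (GRCm38). It was at 0 in the 4 control libraries and had 294, 241, 228 and 248 counts in Klf4-plasmid replicates 1 to 4. No control library held a single read, and the Klf4-plasmid libraries lay close to each other at 5.69, 5.32, 4.33 and 4.7 CPM. Their mean, 5.01 ± 0.608 CPM (SD, n = 4), lay at least 80.7-fold higher than 3 counts per control library. The edgeR adjusted p was 8.56e-15. The fitted log2 fold change of 10.95 (SE 0.38) depends on the prior count of the fit and is no bound, and it was 8.92 with limma-voom. Tff1 shares 31.4% of its exonic bases with Gm15318, an antisense gene that had 0 to 2 counts in control and 3 to 7 in Klf4-plasmid libraries. The Gm15318 counts were small beside those of Tff1. The strand setting of the counting is not given, so reads of this overlap could not be assigned to either gene and the Tff1 level is uncertain by them.

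Tff3 (ENSMUSG00000024029, chromosome 17, 31125306 to 31129646, minus strand), the trefoil factor of intestinal goblet cells, was already expressed in control MIN6 cells. Its values were 7.35, 7.31, 7.99 and 5.98 CPM in control and 8.47, 8.28, 8.65 and 8.62 CPM in Klf4-plasmid replicates 1 to 4. The groups did not overlap, but the gap was small and control replicate 4 was the lowest library. The log2 fold change was 0.25 (SE 0.08, edgeR adjusted p 0.0242), 0.19 in batch 1 and 0.30 in batch 2. The call was lost without the batch term (adjusted p 0.0811) and in 4 of the 8 fits with a library left out: without control replicate 4 (log2 fold change 0.15, adjusted p 0.156) and without Klf4-plasmid replicates 1, 3 or 4 (adjusted p 0.0585, 0.0664 and 0.0667). Tff2 (ENSMUSG00000024028, chromosome 17, 31141049 to 31144282, minus strand), the trefoil factor of gastric mucous neck cells, had 2, 1, 0 and 1 counts in control and 1, 0, 2 and 2 in Klf4-plasmid libraries. It lay under 3 counts in every library, and no difference was detectable at this depth (two-sided exact permutation p = 1, adjusted p = 1 over the 2 untested genes).

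The 3 trefoil genes stand side by side on the minus strand, Tff2 being 17113 bases from Tff1 and 11403 bases from Tff3. The other protein-coding genes within 100 kb of Tff1 were examined for their values. Abcg1, a cholesterol transporter gene next to Tff3, had a log2 fold change of -0.07 (edgeR adjusted p 0.131), and Rsph1 one of -0.08 (edgeR adjusted p 0.373). Tmprss3 and Ubash3a were not tested, with at most 11 and 7 counts in any library. Of the genes named in this stretch, Tff1 and Tff3 passed the threshold.

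Among the mucus components, Fcgbp rose and Muc2 did not pass the threshold. Fcgbp (ENSMUSG00000047730, chromosome 7, 28071236 to 28120862, plus strand) encodes a large secreted protein that is bound to Muc2 in intestinal mucus. It had 20, 29, 8 and 15 counts in control and 996, 796, 630 and 688 counts in Klf4-plasmid replicates 1 to 4. Every Klf4-plasmid library lay far above every control library, and in both groups batch 1 was above batch 2. Expression went from 0.373 ± 0.183 to 15.5 ± 3.51 CPM (SD, n = 4), a 41.4-fold difference, with a log2 fold change of 5.37 (SE 0.13, adjusted p 4.74e-19 by edgeR). It was 5.17 in batch 1 and 5.71 in batch 2. The neighbouring gene 9530053A07Rik, which carries FCGBP as a synonym in RefSeq and could share reads with Fcgbp, had 97 to 117 counts in control and 79 to 109 in Klf4-plasmid libraries (log2 fold change -0.23, SE 0.14, adjusted p 0.24 by edgeR).

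Muc2 (ENSMUSG00000025515, chromosome 7, 141690340 to 141754693, plus strand), the main gel-forming mucin of the intestine, had 2.06, 1.5, 2.64 and 3.17 CPM in control and 1.78, 1.94, 2.15 and 2.88 CPM in Klf4-plasmid replicates 1 to 4. The groups overlapped, and in each group replicate 4 was the highest. The log2 fold change was -0.08 (SE 0.15, edgeR adjusted p 0.722), 0.06 in batch 1 and -0.21 in batch 2. Muc2 stands in a cluster of gel-forming mucin genes, whose other members Muc6, Muc5ac and Muc5b had at most 14, 3 and 4 counts in any library.

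The sequences before the start sites of Fcgbp and Muc2 are shown because both hold the short motif that Klf4 is known to bind, while Fcgbp passed the threshold and Muc2 did not; the difference between the genes was not tested. They are the 250 bases before each start in RefSeq (GRCm38.p6), plus strand, at chr7:28070986-28071235 for Fcgbp and chr7:141690090-141690339 for Muc2, and the capitals mark GGGTG or its reverse complement CACCC.
Fcgbp: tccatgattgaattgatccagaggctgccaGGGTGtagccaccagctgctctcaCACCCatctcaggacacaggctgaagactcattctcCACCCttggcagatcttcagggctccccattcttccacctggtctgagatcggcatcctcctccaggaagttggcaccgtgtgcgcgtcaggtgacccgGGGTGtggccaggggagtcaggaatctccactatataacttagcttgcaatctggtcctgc
Muc2: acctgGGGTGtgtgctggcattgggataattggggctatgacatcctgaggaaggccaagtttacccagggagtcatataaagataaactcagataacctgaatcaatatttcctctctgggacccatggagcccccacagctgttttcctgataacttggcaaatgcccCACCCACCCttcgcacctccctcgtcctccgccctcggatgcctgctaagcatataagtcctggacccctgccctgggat
Fcgbp held 4 matches and Muc2 held 3, of which 2 overlap by 1 base. The longer form GGGNGNGGC, searched on both strands, matched once in each, at 61 bases before the start in Fcgbp and 84 in Muc2, and each of these overlaps a GGGTG match. Of all 32817 windows of this length in the RefSeq table, 52% held GGGTG on either strand, 21.1% held at least 2 matches and 23.3% held the longer form. A match describes letters and not binding.

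Of the transmembrane mucins, Muc4 and Muc1 rose and Muc13 did not pass the threshold. Muc4 (ENSMUSG00000079620, chromosome 16, 32735886 to 32782391, plus strand), a large membrane-bound mucin that interacts with ErbB2, had 19.1, 21.2, 30.6 and 26.2 CPM in control and 32.2, 35.7, 48.4 and 47.9 CPM in Klf4-plasmid replicates 1 to 4. The groups did not overlap, and within each group batch 2 was above batch 1. The log2 fold change was 0.76 (SE 0.05, edgeR adjusted p 4.56e-11), 0.75 and 0.76 in the respective batches. Muc4 shares 5.3% of its exonic bases with Muc20, a mucin gene on the opposite strand that rose from 14 to 32 counts in control to 79 to 174 in Klf4-plasmid libraries (log2 fold change 2.5, SE 0.23, adjusted p 8.84e-09 by edgeR). Whether counting used the strand is not given in the sources used here, so reads of this overlap could not be assigned to either gene.

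Muc1 (ENSMUSG00000042784, chromosome 3, 89229057 to 89233381, plus strand), a cell-surface mucin of many glandular epithelia, had 1.15, 1.11, 1.44 and 0.952 CPM in control and 1.82, 1.74, 1.92 and 1.25 CPM in Klf4-plasmid replicates 1 to 4. The groups overlapped, because control replicate 3 lay above Klf4-plasmid replicate 4, while in batch 1 the groups were apart, and replicate 4 was the lowest library of each group. The log2 fold change was 0.53 (SE 0.19, edgeR adjusted p 0.0332), 0.66 in batch 1 and 0.40 in batch 2. The call was lost without the batch term (adjusted p 0.0697), with the DESeq2 Wald test (0.0517) and in the fits that left out control replicates 1, 2 or 4 or Klf4-plasmid replicates 1, 2 or 3 (0.0677 to 0.145). Muc13 (ENSMUSG00000022824, chromosome 16, 33794037 to 33819934, plus strand), a transmembrane mucin of the gut, had 16, 10, 3 and 17 counts in control and 17, 18, 16 and 26 in Klf4-plasmid libraries. Its groups overlapped, control replicate 3 was low, and the log2 fold change of 0.67 (SE 0.41) did not pass the threshold (edgeR adjusted p 0.223). It was 0.30 without control replicate 3 and 1.01 without control replicate 4, and did not pass in either fit. It also overlaps an antisense gene, Gm15657, which had at most 4 counts.

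The transcription factor Spdef and the folding enzyme Agr2 were both low in abundance. Spdef (ENSMUSG00000024215, chromosome 17, 27714352 to 27728955, minus strand), an ETS-family factor required for goblet cell maturation, had 4, 2, 10 and 1 counts in control and 36, 13, 24 and 40 in Klf4-plasmid replicates 1 to 4. The groups did not overlap, with the highest control library at 10 counts and the lowest Klf4-plasmid library at 13. Expression went from 0.0874 ± 0.0815 to 0.549 ± 0.218 CPM (SD, n = 4), with a log2 fold change of 2.63 (SE 0.49, adjusted p 0.000162 by edgeR), 2.94 in batch 1 and 2.41 in batch 2. Without control replicate 3 it was 3.41 (edgeR adjusted p 8.95e-05). Agr2 (ENSMUSG00000020581, chromosome 12, 35992907 to 36004087, plus strand), a disulfide isomerase of the endoplasmic reticulum needed for Muc2 folding, had 2, 3, 0 and 1 counts in control and 5, 4, 1 and 2 in Klf4-plasmid libraries. Its groups overlapped near 3 counts. In batch 1 the Klf4-plasmid libraries lay above the control libraries, and in batch 2 the groups met at 1 count. By a permutation that takes no account of batch, a difference was not detectable at this depth (two-sided exact permutation p = 0.286, adjusted p = 0.572 over the 2 untested genes).

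The sequences before Spdef and Muc4 are shown as those of a gene that rose with no short motif in this window and of one that rose with 2. They are the 250 bases before the start in RefSeq (GRCm38.p6), 5′ to 3′ on the gene's strand, at chr17:27728952-27729201 (minus strand) for Spdef and chr16:32735636-32735885 (plus strand) for Muc4, with GGGTG or CACCC in capitals.
Spdef: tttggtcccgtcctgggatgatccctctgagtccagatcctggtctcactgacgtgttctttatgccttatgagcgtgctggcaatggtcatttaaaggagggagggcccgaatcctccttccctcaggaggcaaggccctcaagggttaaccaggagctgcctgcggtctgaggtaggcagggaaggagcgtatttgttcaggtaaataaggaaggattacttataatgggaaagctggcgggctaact
Muc4: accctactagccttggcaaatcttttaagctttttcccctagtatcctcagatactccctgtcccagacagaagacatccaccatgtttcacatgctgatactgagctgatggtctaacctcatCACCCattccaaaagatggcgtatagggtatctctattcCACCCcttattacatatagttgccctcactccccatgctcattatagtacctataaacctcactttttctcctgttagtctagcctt
Of the 7 goblet cell genes with a RefSeq entry, Fcgbp, Muc2, Muc4 and Agr2 held the short motif and Muc1, Muc13 and Spdef did not; Tff1, Tff2 and Tff3 had no entry. Muc13 has a pair of start sites in the table, and neither window held it.

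Levels were compared between genes as CPM per kb of exonic length, from GENCODE M21. In control cells Tff3 was highest at 14.5 ± 1.71 CPM per kb (SD, n = 4), followed by Muc4 at 2.06 ± 0.437 and Muc1 at 0.495 ± 0.0866. Muc1 and Muc2 (0.328 ± 0.101) overlapped across libraries. Muc13, Spdef, Tff2, Fcgbp and Agr2 all lay at or under 0.0788 CPM per kb, with each overlapping the next, and Tff1 was last at 0. In Klf4-plasmid cells Tff3 was again first at 17.3 ± 0.344, and Tff1 was second at 7.13 ± 0.865 CPM per kb, above Muc4 at 3.49 ± 0.71. Fcgbp held the fourth place at 1.47 ± 0.334 and no longer overlapped Agr2 or Tff2. Muc1 followed at 0.717 ± 0.127, then Muc2 (0.307 ± 0.0682) and Spdef (0.238 ± 0.0946), whose libraries overlapped. The last were Muc13 (0.125 ± 0.0278), Agr2 and Tff2.

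**Figure D2:**
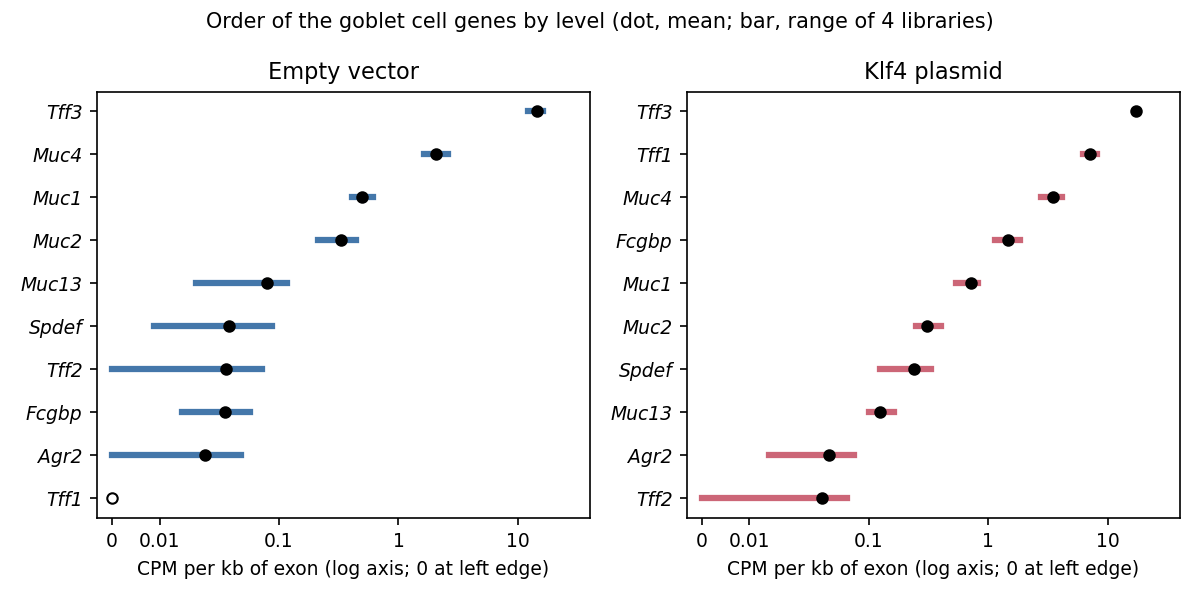
Level of the 10 goblet cell genes in CPM per kb of exon (log axis, 0 at the left edge), ordered within empty-vector and Klf4-plasmid cells; dots are means and bars the range of 4 libraries. Tff1 moves from the last place to the second, at 7.13 CPM per kb, while Tff3 leads in both groups.

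The response was measured in 2 batches, and none of the 8 tested genes differed between them by edgeR's interaction test (smallest adjusted p 0.659, for Fcgbp), a test that 0.766% of all genes passed. None of the 8 had an unadjusted interaction p under 0.05, and the DESeq2 Wald test of the interaction gave none either (smallest adjusted p 0.847). The interaction term of Spdef was -0.53 and that of Muc13 0.54 on the log2 scale, both at low counts. Tff1 has no control counts in either batch, so its interaction could not be estimated and its entry among the 8 carries no information. Muc2 was the gene whose within-batch values differed in sign.

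**Figure D3:**
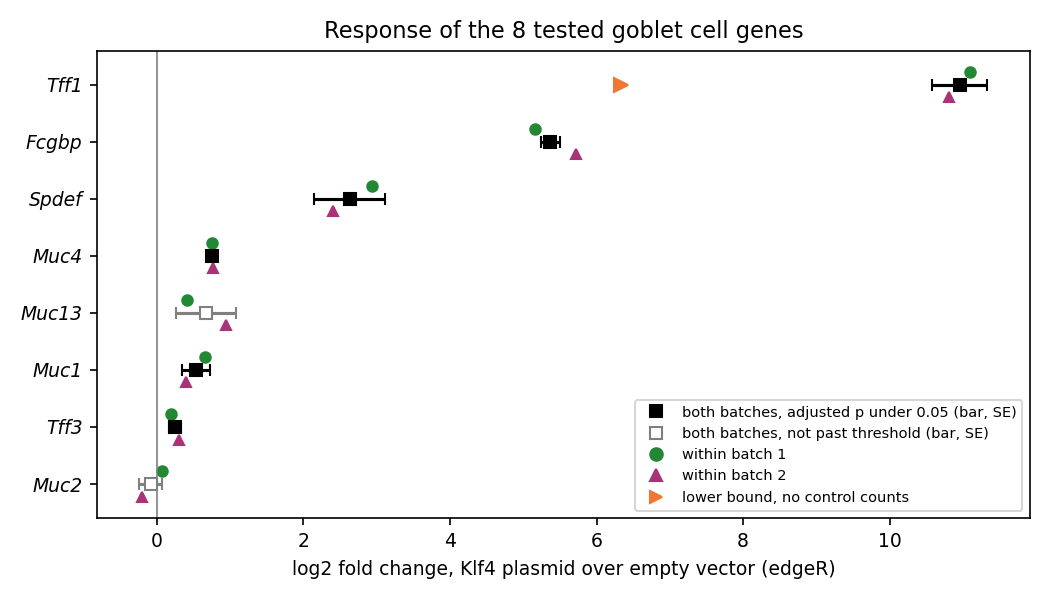
Log2 fold change of the 8 tested goblet cell genes, Klf4 plasmid over empty vector, from edgeR (squares with SE), and within batch 1 (circles) and batch 2 (triangles); the arrowhead at 6.33 is the lower bound for Tff1, which had no control counts. Tff1, Fcgbp and Spdef lie above 2 in both batches, and Muc2 lies near 0.

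Other mucin genes were examined as a list of 15, of which 14 were found in the table and 5 were tested. Of these 4 rose, beside a background of 21.1% of all genes, and the median log2 fold change was 2.22 against -0.01 over all tested genes. Muc3 and Muc3a entered the test through their Klf4-plasmid libraries, so this count and median only describe the list. Muc3, an intestinal transmembrane mucin, had 1, 5, 0 and 5 counts in control and 56, 62, 59 and 62 in Klf4-plasmid libraries (log2 fold change 4.32, SE 0.42, adjusted p 1.74e-08 by edgeR). Mucl3 rose from 1.57 to 7.32 CPM (log2 fold change 2.22, SE 0.13, adjusted p 3.6e-12 by edgeR), and Muc20 is described above. Muc3a rose by 1.45 (SE 0.47, edgeR adjusted p 0.0177), a call lost without the batch term and in 4 of the 8 fits with a library left out (control replicates 1 or 4, Klf4-plasmid replicates 1 or 4). Mucin genes hold repeats and Muc3 and Muc3a are close relatives, so their counts are uncertain. The endolysosomal sialomucin Cd164 had a log2 fold change of -0.07 (edgeR adjusted p 0.0647). It was called lower with DESeq2 size factors, the DESeq2 Wald test and limma-voom. The same held without control replicates 1 or 3 or Klf4-plasmid replicates 1 or 3. It was not called without the batch term or in the other fits with a library left out. The gastric and airway mucins Muc5ac, Muc5b and Muc6 were too low to be tested.

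Of 14 other goblet cell effector genes 6 were tested and 5 rose, beside 21.1% of all tested genes, with a median log2 fold change of 4.00. Tpsg1, Sytl2 and Ern2 entered the test through their Klf4-plasmid libraries, so this count and median only describe the list. Tpsg1, a transmembrane tryptase gene, had 3, 0, 3 and 0 counts in control and 210, 200, 388 and 370 in Klf4-plasmid libraries (log2 fold change 7.41, SE 0.29, adjusted p 1.61e-15 by edgeR). Sytl2, which encodes a granule-docking protein, had 2 counts over the control and 283 over the Klf4-plasmid libraries, a ratio of 135.2 with a 95% counting interval of 37.1 to 1120. Ern2, the stress sensor of mucous epithelia, had 3 to 8 counts in control and 180 to 231 in Klf4-plasmid libraries (log2 fold change 5.23, SE 0.22, adjusted p 5.65e-15 by edgeR). Capn9, a calpain of the digestive tract, rose from 6.37 to 43.4 CPM (log2 fold change 2.77, SE 0.07, adjusted p 4.36e-19 by edgeR). Clca1, a secreted mucus metalloprotease, rose by 0.92 (SE 0.24, edgeR adjusted p 0.00383), and Best2 at 0.46 did not pass the threshold (edgeR adjusted p 0.221). Other goblet cell products were near the limit of detection. Retnlb and Reg4 had at most 1 and 2 counts in any library, and Spink4, Ang4 and Agr3 at most 4, 4 and 5. Zg16 had 0 to 6 counts in control and 9 to 15 in Klf4-plasmid libraries. Guca2a had 0 to 5 and 6 to 15 counts, and Bcas1 0 to 5 and 3 to 7. Without the filter on low counts, 7 of the 14 were called by edgeR, all higher.

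Of 11 transcription factors of secretory and mucous cells 9 were tested, 4 rose and none fell, beside 21.1% and 15.5% of all tested genes, with a median log2 fold change of 0.21. Elf3, an epithelial ETS factor, rose from 23 to 41.3 CPM (log2 fold change 0.85, SE 0.04, adjusted p 4.22e-13 by edgeR). The others were Foxa1 (log2 fold change 0.63), the Notch target Hes1 (0.44) and Foxa3 (0.41), of which Foxa1 lost its call without the batch term (edgeR adjusted p 0.0574). Foxa2, Xbp1, Creb3l1, Creb3l4 and Ehf did not pass the threshold. Atoh1, the factor that commits gut cells to the secretory fate, was not tested; it was at 0 in every control library and had 5, 6, 9 and 7 counts with Klf4.

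Mucins carry dense O-linked glycans, and of 30 genes of their synthesis (31 rows, since St6galnac2 has 2) 25 rows were tested. Of these 8 rose and 2 fell, beside 21.1% and 15.5% of all tested genes. The 10 calls in all are near the 36.6% of all tested genes, and the median log2 fold change was 0.10. Galnt7, Fut2 and Galnt5 would not have passed the filter on low counts on their control libraries alone. This count and median therefore only describe the list. Galnt7, which extends mucin-type glycan initiation, had 0 to 2 counts in control and 42 to 60 in Klf4-plasmid libraries (log2 fold change 4.83, SE 0.45, adjusted p 7.77e-09 by edgeR). Fut2, the fucosyltransferase of secreted blood-group antigens, had 2 to 7 and 52 to 78 counts (log2 fold change 3.67, SE 0.33, adjusted p 4.03e-09 by edgeR). Gcnt4 (1.21), Galnt12 (0.79) and B3gnt3 (0.73) also rose. The genes that fell were Galnt11 (-0.20) and St3gal2 (-0.15). Galnt3 was not tested, with 0 counts in control and 6, 8, 6 and 12 in Klf4-plasmid libraries. Among other untested genes, Galnt6 had 0 to 9 and 9 to 22 counts, and Gcnt3 0 to 4 and 3 to 18. B3gnt6 had 0 to 2 and 0 to 4 counts, and Chst4 1 to 8 and 2 to 6. The core enzyme gene C1galt1 and its chaperone C1galt1c1 had log2 fold changes of 0.11 and 0.03 and did not pass the threshold.

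Markers of other cell types were counted in the same fit, since several of the 10 genes are made outside goblet cells too. Of all tested genes 21.1% were higher and 15.5% lower. Of 12 squamous epithelium markers 6 were tested and rose. Each entered the test through its Klf4-plasmid libraries, so the filter favoured higher genes and this count only describes the list. The list summed to 0.318 to 0.616 CPM in control and 48.8 to 75.8 CPM in Klf4-plasmid libraries. Krt14 had 0, 0, 0 and 1 counts in control and 766 to 1528 in Klf4-plasmid libraries, while Trp63, Ivl and Sprr3 had 0 in all libraries. Of the other untested markers, Krt4 had 0 counts in control and 9, 3, 12 and 5 in Klf4-plasmid libraries. Krt6a had 0 and 1 to 2 counts, and Krt5 2 to 7 and 9 to 13. Of 8 gastric mucous markers only Aqp5 was tested, again through its Klf4-plasmid libraries, and it rose (log2 fold change 4.75, SE 0.38, adjusted p 6.35e-10 by edgeR). Without any 1 control replicate or without Klf4-plasmid replicate 2, 2 were tested and rose. The untested Psca had 1, 0, 2 and 2 counts in control and 13, 8, 13 and 19 in Klf4-plasmid libraries. Gkn2 and Gkn3 had 0 counts in all libraries. The list summed to 0.103 to 0.352 CPM in control and 1.94 to 2.13 CPM in Klf4-plasmid libraries. No Paneth cell marker passed the filter, and Mmp7, Defa17, Defa22 and Defa24 had 0 counts throughout. Of the enterocyte markers 2 rose and 1 fell of 6 tested, a count of 3 that was 1 without control replicate 4 or Klf4-plasmid replicate 1; Lct, which fell, lost its call in 6 of the 8 fits with a library left out and Cdx2, which rose, in 4. The list summed to 140.8 to 150.9 and 132.9 to 146.7 CPM. Of the untested, Cdx1 had 0 counts in control and 6, 9, 5 and 18 in Klf4-plasmid libraries, and Fabp2 0 to 2 and 1 to 11. Alpi, Fabp1, Sis, Apoa4 and Krt20 had at most 5 in any library. Among tuft cell markers Dclk1 fell by 0.17 on the log2 scale and was the call among 5 tested. Without any 1 control replicate or without Klf4-plasmid replicate 1, 6 were tested, of which 1 was called higher and 1 lower. Of the untested, Pou2f3 had 0, 0, 0 and 2 counts in control and 8, 16, 31 and 26 in Klf4-plasmid libraries. Gfi1b had 0 to 1 and 4 to 11 counts, and Il25 at most 2. The list summed to 208.1 to 234.2 CPM in control and 186.6 to 223.6 CPM in Klf4-plasmid libraries. Of the acinar and duct markers 3 of 4 tested rose, led by Krt19 (log2 fold change 3.76), with Krt19 and Spp1 tested through their Klf4-plasmid libraries and sums of 56.3 to 87.7 and 72.7 to 111.4 CPM. Of the untested, Ptf1a had 1, 0, 0 and 0 counts in control and 18, 7, 12 and 15 in Klf4-plasmid libraries. Cel had 42 counts over the control and 29 over the Klf4-plasmid libraries. Cpa1 had 0 to 3 and 1 to 5 counts, Cftr 0 to 2 and 1 to 9, and Pnlip at most 1. Of the fibroblast, leukocyte and endothelial markers 4 of 6 tested rose, of which Dcn, Cdh5 and Pdgfra were tested through their Klf4-plasmid libraries, led by Dcn (0 to 5 counts in control, 655 to 1124 in Klf4-plasmid libraries), with sums of 11.3 to 12.3 and 30.4 to 37.1 CPM, while Ptprc and Col3a1 had at most 7 and 3 counts. The part of these lists in the response of the goblet cell genes was not tested.

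**Figure D4:**
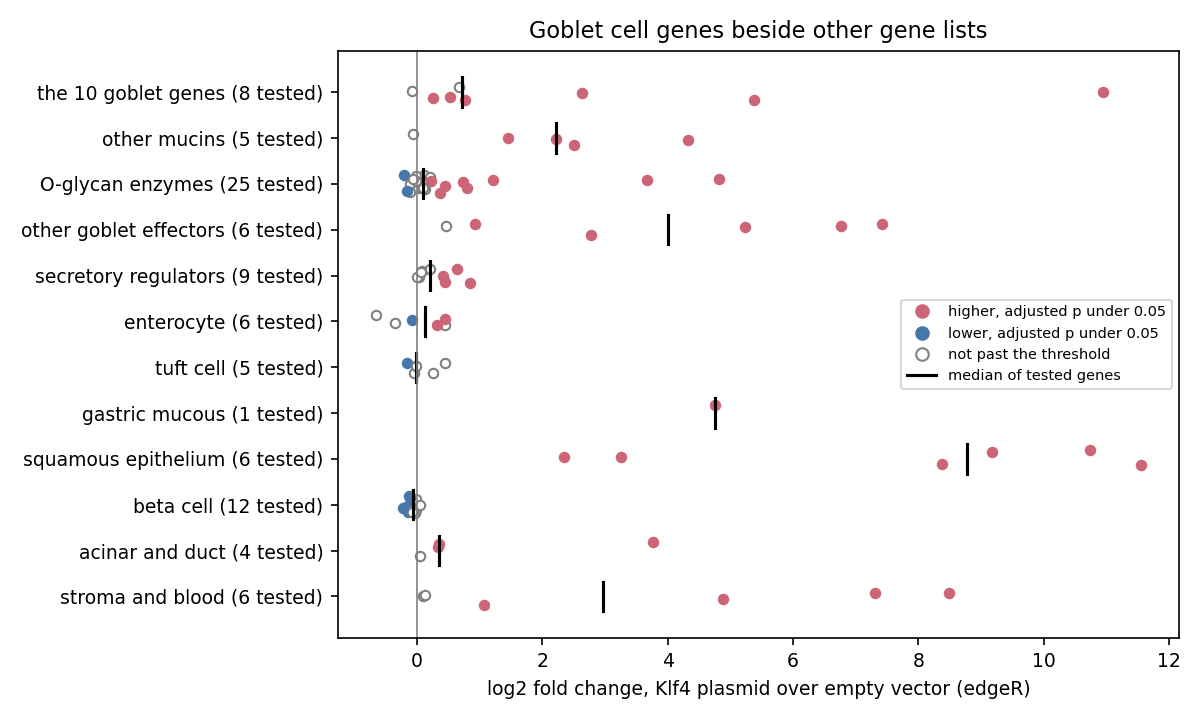
Log2 fold change (Klf4 plasmid over empty vector, edgeR) of every tested gene of the 10 goblet cell genes and of 11 other lists; red and blue points passed the threshold, open points did not, and the black line is the median of tested genes. The goblet cell genes span -0.08 to 10.95, the β-cell list stays near 0 with a median of -0.07, and the squamous list reaches 11.55. The upper ends, 10.95 for Tff1 with 0 control counts and 11.55 for Krt14 with 1 in all, are fitted values and no bounds.

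The genes most like Muc4, highest of the 10 in CPM not scaled for length, and Tff1, the most changed, were sought over the 8 libraries, by Euclidean distance between row-centred log2 CPM profiles with a prior count of 2. Nearest to Muc4 were Kcnmb4os2, an antisense gene (distance 0.229), the neural adhesion gene L1cam (0.286) and the non-coding Gm10605 (0.295). L1cam had 39.7 ± 7.64 CPM in control and 64.2 ± 11.5 CPM in Klf4-plasmid cells (SD, n = 4), a log2 fold change of 0.70. The Tff1 profile, at 0 in control, takes its control level from the prior count, so which genes lie nearest depends on it; another prior count was not tried. Nearest to Tff1 were Klf4 itself (0.521), Lypd2 of the Ly6 family (0.787) and the acetylcholine receptor subunit gene Chrnd (0.802). Tff1 was chosen for its large change, so genes with a like step between the groups were bound to lie near it. Within the Klf4-plasmid libraries the order differed. Tff1 had 5.69, 5.32, 4.33 and 4.7 CPM in replicates 1 to 4, and Klf4 had 4870, 4529, 4900 and 5849 CPM. Lypd2 and Chrnd had 0 counts in each control library and 6.8 ± 0.471 and 5.08 ± 1.04 CPM in Klf4-plasmid cells (SD, n = 4), and they were at least 109.6-fold and 81.8-fold higher than 3 counts per control library.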

How the data were processed

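The authors deposited 1 table of raw read counts, with a row for each gene and a column for each of the 8 libraries, and these counts were used as they stand. Per the submitters' processing notes, FastQC, STAR, featureCounts and edgeR were used with the mm10 build, and the name of the deposited counts speaks of cutadapt trimming. Libraries of polyadenylated RNA were made with a Tecan kit, per the labels' protocols; the extraction text mentions islets although each sample is named MIN6. Versions, the strand setting and the annotation are not given in the sources used here. Coordinates, exonic lengths and overlaps came from GENCODE M21 (GRCm38).

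R 4.3.3, edgeR 4.0.16 and limma 3.58.1 were used. The edgeR function filterByExpr (minimum count 10) kept 18266 of 55536 genes. The TMM-scaled counts were fitted with terms for batch and plasmid by glmQLFit, the design that the series' text describes. Benjamini-Hochberg adjustment ran over all tested genes. The standard error is the size of the log2 fold change over the square root of the F statistic. Folds against control libraries at 0 used 3 counts per library as the control level. Intervals cover counting error only. Genes under the filter were compared by exact permutation (two-sided, 70 relabellings, smallest possible p 0.0286). The fits were tested on simulated counts.

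The 10 genes and the other lists were chosen with earlier results of these data known. Named were the 10 genes, Klf4 and up to 5 called genes per list with the largest change. The 3 nearest profiles of 2 of the 10 were named too. Genes absent from the control libraries were to be named, but not all of them are. Genes neighbouring the 10, and further genes given by their counts, were chosen after the values were seen. Symbols found were 14 of 15 for other mucins and all for the other lists.

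Replicate numbers came from the sample titles. Deviations from the group means of same-numbered libraries correlated at 0.459 to 0.614 over 10484 genes, against 0.528 for other numbers of the same batch and -0.534 between batches. Libraries of a group differed beyond sampling noise in every pair (chi-square per degree of freedom 4.23 to 23.3). Alternatives were no batch term, a replicate block, DESeq2 1.42.0 size factors and Wald test, factors from abundant genes, limma-voom, other filters and leaving out each library. Figures were drawn with Python 3.11.15.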

Additional observations from a re-analysis of the deposited data

Results flagged for a closer look

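Among 24 checks for a library far from the other 3 of its group (total counts, Klf4 and the 10 goblet cell genes, in each group), 1 stood out. Chance gives about 1.2 if every check can flag a library, but Tff1, at 0 in each control library, could not. For genes with few counts the expected number is rough. Klf4-plasmid replicate 2 had 45420000 counts in all (to 4 digits), below the 51890000 to 52730000 of the other Klf4-plasmid libraries. Without it, 5 of the goblet cell genes changed and Muc1 did not (log2 fold change 0.51, edgeR adjusted p 0.0677).

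The effect of the plasmid on Klf4 itself differed between the batches, with an interaction term of 0.37 on the log2 scale (edgeR adjusted p 0.0057) and log2 fold changes of 6.79 in batch 1 and 7.16 in batch 2.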

How the results depend on the processing

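Of 146 values of the 10 goblet cell genes under the alternatives, 129 kept their direction and their side of the threshold. Calls were lost 13 times, 8 of them for Muc1 and 5 for Tff3, and 4 values changed sign. Tff1, Fcgbp, Spdef and Muc4 kept their calls in every alternative that tested them; the filter at 1 CPM left Spdef and Muc13 untested. The sign changes were those of genes without a call: Muc2 at 0.018 (log2) without Klf4-plasmid replicate 3, and the Tff2 difference in CPM, which was 0.00289 and became -0.00437 without control replicate 3, -0.00202 without Klf4-plasmid replicate 3 and -0.00184 without Klf4-plasmid replicate 4. Over all fits with a library left out, Muc2 ranged from -0.202 to 0.018 and the Tff2 difference from -0.00437 to 0.0107. The cause was not tested. Of the 10 genes, 6 changed in the fit on batch, 4 without the batch term, 5 with the DESeq2 Wald test and 4 to 6 when a library was left out. Over all genes, 6684 changed with the batch term, 4116 without it and 5889 to 7074 when a library was left out. With the replicate block in place of batch, 6284 genes and 6 goblet cell genes changed; no goblet cell gene changed its call, and of the other genes put through the alternatives Lct alone lost its call. Other lists were put through the same alternatives after the data had been seen. Among them 621 of 650 values of single genes were kept and 29 lost their call. Without the batch term 2 genes of the β-cell list and 1 each of the enterocyte and acinar and duct lists changed, and none of the tuft cell list. Depth limits Tff2 and Agr2, for which 5 counts were the most in any library.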
